A study of Mus musculus with 6 samples.

Results

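The regions described here are the 1000 accessible regions with the highest fold enrichment in the FM peak list relative to the KO peak list, among regions that were strong in both. They are called FM-strong regions below. They were taken from mouse epiblast stem cells, which derive from the post-implantation epiblast, profiled by ATAC-seq after 2 days of serum differentiation as embryoid bodies. ATAC-seq uses the transposase Tn5, which cuts accessible DNA and tags it with adapters. One group held 3 libraries of Mixl1 knockout cells, and the other held 3 libraries of Mixl1-inducible cells that received doxycycline at 1 µg/mL for 24 h before collection. The labels record doxycycline for the inducible lines and do not say whether the knockout cells carried the inducible transgene, which promoter drives it, or whether the lines are single clones. Both groups had been kept on irradiated mouse embryonic fibroblasts before aggregation. Doxycycline, the cell line and Mixl1 therefore cannot be told apart. With 1 peak list per group there is no replicate error, a test between the groups was not possible, and intervals cover counting only. No label explains the name FM. It was taken by elimination as the list of the induced cells.

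To choose the regions, the peaks of both lists were merged where they overlapped by at least 1 bp, on 16 autosomes (all but 12, 15 and 18). This gave 200750 merged regions, of which 80133 held a peak of both lists. A region qualified when its strongest peak had a −log10 q of at least 10 in each list, which 24080 did. The fold enrichment of a peak is the peak caller's ratio of fragments over the summit to the local background. The log2 ratio of the highest FM to the highest KO fold was centred on its median of −0.15 over the 24080 regions, and the highest 1000 were kept, which is 4.15% of them. The regions were thus chosen by these folds, which are given as a description. Centred log2 ratios ran from 0.45 to 1.12, and the uncentred FM fold was 1.24 to 1.97 times the KO fold. The limit fell in a continuous distribution, since the 5 regions just inside had centred ratios of 0.453 and the 5 just outside had 0.452. Before centring, the FM fold exceeded the KO fold in all 1000 FM-strong regions and in 28.8% of the qualifying regions. For contrast, the 1000 qualifying regions at the other end of the ratio are called KO-strong regions.

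As background, MIXL1 is a homeodomain protein expressed in the primitive streak and needed for normal development of mesoderm and endoderm. Accessible regions fall into promoters and distal elements. Promoters of genes used in most cells tend to be rich in CpG dinucleotides and open in every cell type, while distal elements and CpG-poorer promoters vary more between cell types. Many germ line genes have promoters that are methylated and silenced in the post-implantation epiblast.

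The promoter windows below, from 250 bases before to 50 after a transcription start, show the kind of promoter among the regions of highest ratio. They are the 6 windows of highest rank that an FM-strong region overlapped, and that of Sycp3, which was added after its values were seen. Sequences and positions are those of RefSeq for GRCm38.p6, the assembly named mm10, and are written 5′ to 3′ on the gene's strand with every CpG in capitals. Sox30 and Topaz1 are germ cell genes, NSUN7 belongs to the NSUN family of putative RNA methyltransferases, SEMA6D is a transmembrane semaphorin, SCLY is selenocysteine lyase, and SYCP3 is a protein of the axial elements of meiotic chromosomes.
Sox30, chr11:45980060-45980359, strand +: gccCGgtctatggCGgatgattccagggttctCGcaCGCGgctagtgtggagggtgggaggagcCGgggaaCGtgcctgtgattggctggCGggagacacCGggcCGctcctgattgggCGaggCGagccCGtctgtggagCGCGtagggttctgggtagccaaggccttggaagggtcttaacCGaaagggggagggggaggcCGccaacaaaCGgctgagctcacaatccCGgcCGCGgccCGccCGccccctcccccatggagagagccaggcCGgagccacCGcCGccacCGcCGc
Topaz1, chr9:122746949-122747248, strand +: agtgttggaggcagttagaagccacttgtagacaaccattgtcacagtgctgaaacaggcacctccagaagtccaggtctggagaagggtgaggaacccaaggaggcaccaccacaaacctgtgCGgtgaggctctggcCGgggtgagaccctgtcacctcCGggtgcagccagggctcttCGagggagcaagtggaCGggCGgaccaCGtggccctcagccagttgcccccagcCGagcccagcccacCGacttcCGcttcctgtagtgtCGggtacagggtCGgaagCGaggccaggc
Nsun7, chr5:66259648-66259947, strand +: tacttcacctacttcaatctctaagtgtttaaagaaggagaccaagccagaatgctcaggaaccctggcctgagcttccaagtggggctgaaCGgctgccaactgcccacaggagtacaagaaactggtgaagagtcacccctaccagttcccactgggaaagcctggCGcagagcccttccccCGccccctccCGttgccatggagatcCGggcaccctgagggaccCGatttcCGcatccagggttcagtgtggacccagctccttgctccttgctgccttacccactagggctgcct
Fam149a, chr8:45382242-45382541, strand −: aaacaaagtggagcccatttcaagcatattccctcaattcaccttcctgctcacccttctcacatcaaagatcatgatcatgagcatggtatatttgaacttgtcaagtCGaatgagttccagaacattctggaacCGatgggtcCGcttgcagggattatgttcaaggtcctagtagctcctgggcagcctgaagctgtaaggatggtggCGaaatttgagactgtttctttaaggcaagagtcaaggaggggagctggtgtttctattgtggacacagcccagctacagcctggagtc
Sema6d, chr2:124089719-124090018, strand +: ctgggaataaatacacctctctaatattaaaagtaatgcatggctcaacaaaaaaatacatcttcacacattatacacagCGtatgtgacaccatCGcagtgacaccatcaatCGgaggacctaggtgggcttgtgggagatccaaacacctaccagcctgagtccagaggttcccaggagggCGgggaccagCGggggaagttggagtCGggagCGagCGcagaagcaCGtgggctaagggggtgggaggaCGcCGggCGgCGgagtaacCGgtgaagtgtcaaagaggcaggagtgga
Scly, chr1:91298088-91298387, strand +: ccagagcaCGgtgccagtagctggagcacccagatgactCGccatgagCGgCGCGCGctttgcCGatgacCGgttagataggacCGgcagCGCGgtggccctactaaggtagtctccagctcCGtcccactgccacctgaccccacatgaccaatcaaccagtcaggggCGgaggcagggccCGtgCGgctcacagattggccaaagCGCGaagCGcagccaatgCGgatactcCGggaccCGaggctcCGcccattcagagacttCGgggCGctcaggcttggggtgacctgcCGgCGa
Sycp3, chr10:88459337-88459636, strand +: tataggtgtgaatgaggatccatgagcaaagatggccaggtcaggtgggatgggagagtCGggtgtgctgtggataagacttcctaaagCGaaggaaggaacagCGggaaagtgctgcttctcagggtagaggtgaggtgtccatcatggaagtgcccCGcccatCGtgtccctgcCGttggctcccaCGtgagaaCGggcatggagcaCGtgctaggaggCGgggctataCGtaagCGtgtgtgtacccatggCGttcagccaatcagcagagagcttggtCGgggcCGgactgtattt

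These windows differed widely in CpG content. Observed over expected CpG, the number of CpGs relative to that given by the C and G content of the window, was 0.77 with 28 CpGs for Sox30 and 0.80 with 26 CpGs for Scly. It was 0.67 with 15 CpGs for Sycp3, 0.66 with 14 for Sema6d and 0.44 with 13 for Topaz1. Nsun7, at 0.28 with 7 CpGs, and Fam149a, at 0.24 with 4 CpGs, had CpG-poor windows. The summit of the overlapping region lay 142 bp or less from the start for all but Fam149a, where it lay 813 bp away.

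The region of highest ratio lay on chr19:27286275-27286495, 32.2 kb from Vldlr, which encodes the very low density lipoprotein receptor. Its FM fold was 8.05 and its KO fold 4.09, a centred log2 ratio of 1.12. The number of fragments over the summit, called the pileup here and recovered from the fold and p-value of each peak, was 237 against 121. An equally high ratio, 1.12, was found for chr13:3477952-3478857, 59.9 kb from Gdi2, a gene of the Rab GDP dissociation inhibitor family. Its fold was 6.82 against 3.48 and its pileup 201 against 103. Inside Fam161a, which encodes a protein of the ciliary base, chr11:23039556-23039930 had folds of 7.20 and 3.75 and pileups of 212 and 111. Inside Slc6a13, a GABA transporter gene, chr6:121310368-121310607 had folds of 7.14 and 3.92 and pileups of 210 and 116. In each of these 4 regions the FM pileup was 1.81 to 1.96 times the KO pileup, over local backgrounds of 28.6 and 28.8 fragments.

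Germ cell genes were the nearest genes of 3 further regions among the highest 10. Inside Sox30, a Sox factor gene of spermatids, chr11:45979748-45981303 had folds of 5.82 and 3.08 and pileups of 175 and 91. Its summit lay 142 bp from an annotated transcription start, but more than 1 kb from the outer ends of the gene, which define gene ends here. At the end of Topaz1, a germ cell gene required in spermatogenesis, chr9:122746887-122747699 had folds of 5.11 and 2.81 and pileups of 150 and 83. Inside Hsf2bp, whose product acts in meiotic recombination, chr17:31954197-31955052 had folds of 4.68 and 2.61 and pileups of 146 and 77. The other regions of the highest 10 were inside Smchd1, a gene of X inactivation and imprinting, and at the ends of Nsun7 and Fam149a. Their FM folds were 4.36, 5.01 and 4.70, their KO folds 2.45, 2.88 and 2.71, and their centred ratios 0.98, 0.94 and 0.94. At Smchd1 the pileups were 133 and 89, and the local backgrounds were 29.7 and 35.7 fragments, so part of that ratio came from the background. The nearest protein-coding gene is a position, and the data do not show which gene a region acts on.

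**Figure D1:**
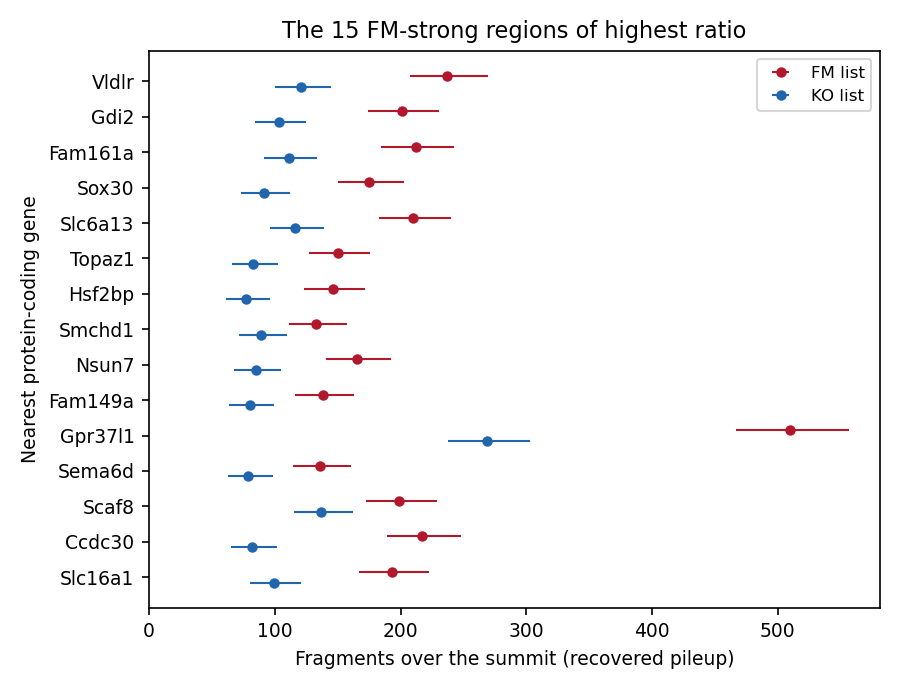
Pileup (fragments over the summit, x axis) in the FM list and the KO list for the 15 FM-strong regions of highest ratio, each named by its nearest protein-coding gene, with exact Poisson 95% intervals that cover counting only. The FM pileup was the higher of the pair in all 15, from 237 against 121 at Vldlr to 510 against 269 at Gpr37l1.

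The FM-strong regions had median folds of 3.54 for FM and 2.65 for KO, against 3.09 and 3.40 over all qualifying regions. In the KO list many lay near the floor of 10, with a median −log10 q of 14.4. That median was 35.3 over qualifying and 104 over KO-strong regions, so contrasts with KO-strong regions also set weaker KO peaks against stronger ones. In the FM list the FM-strong regions had a median −log10 q of 33.4, against 28.6 over qualifying regions. The median pileups of the FM-strong regions were 142 and 103, against 157 and 163. The median local backgrounds, 37.1 and 36.3 fragments, differed little between the lists. The region with the highest FM fold, chr7:51955500-51955973 inside Gas2, a gene of the growth-arrest-specific family, stood far above the rest. It had folds of 25.2 and 15.6, pileups of 745 and 464 and a centred ratio of 0.84. The next were chr3:8245149-8246668, with no protein-coding gene within 100 kb and folds of 11.3 and 8.58, and a region 37.9 kb from Gpr37l1, a G protein-coupled receptor gene of glia, with folds of 10.1 and 5.83. Regions 32.3 kb from Sp3, a zinc-finger factor gene, and 3.13 kb from Nwd1 had FM folds of 9.71 and 9.19 and KO folds of 6.40 and 6.06.

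**Figure D2:**
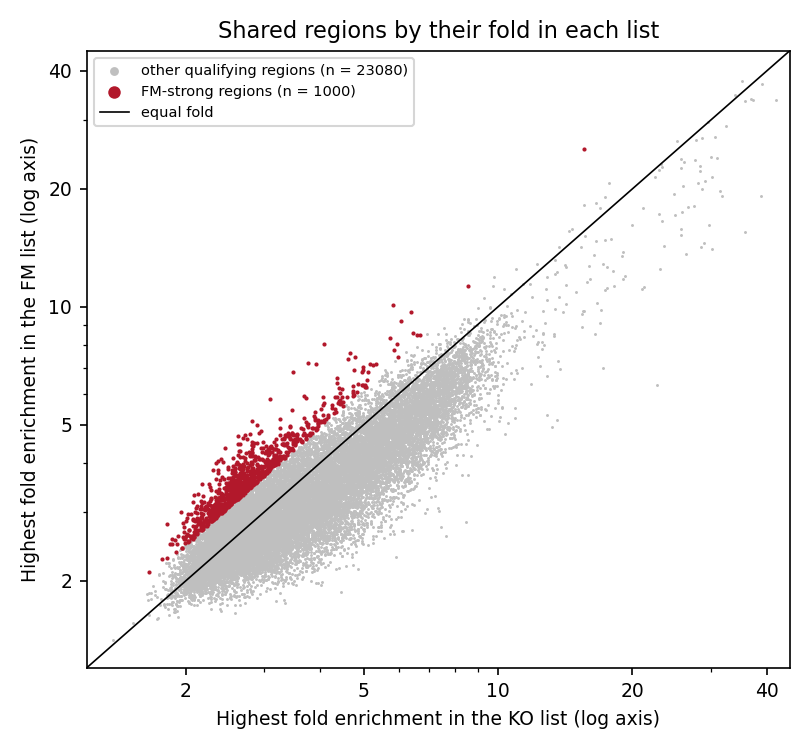
Highest fold enrichment of each qualifying shared region in the KO list (x axis) and the FM list (y axis), both on log axes, with the 1000 FM-strong regions in red, the other 23080 in grey and the line of equal fold. The FM-strong regions lie along the upper edge, mostly at low fold, with medians of 3.54 (FM) and 2.65 (KO), and the region inside Gas2 stands apart at 25.2 and 15.6.

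The pileup, which is not divided by the local background, was higher in the FM list in 938 FM-strong regions, or 93.8%, against 37.7% of the qualifying regions. Among the 998 regions with both pileups recovered, the median ratio was 1.36, with median exact 95% bounds of 1.05 and 1.78. The median ratio over the qualifying regions was 0.924. The FM-strong regions were chosen as extremes of a related measure, so such intervals overstate how far they stand apart. Ranking by pileup in place of fold kept 442 of the 1000. In 60 regions the KO pileup was at least as high as the FM pileup, with medians of 147.5 and 126.5, and their higher FM fold came with a lower FM background. The background was higher in the KO list in all 60, with medians of 36.9 (FM) and 54.0 (KO) fragments. Of these 60, 31 were nearest to a predicted gene with a Gm or Rik name, as were 64 of all FM-strong regions (6.40%), against 3.70% of qualifying and 5.50% of KO-strong regions.

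FM-strong regions lay away from gene ends more often than qualifying regions in general. Summits no more than 1 kb from the start or end of a protein-coding gene were found in 258, or 25.8% (exact binomial 95% interval 23.1 to 28.6%), against 41.5% of qualifying regions and 56.6% of KO-strong regions. The intergenic share was 40.7% (37.6 to 43.8%), against 26.0% and 23.3%. The share inside genes, 33.5%, was close to the 32.5% of all qualifying regions and above the 20.1% of KO-strong regions. Measured from annotated transcription starts, 21.6% of FM-strong summits lay within 1 kb, against 37.5% and 51.1%, and the median distance was 19 kb, against 9.47 kb and 0.635 kb. Beyond 100 kb from any protein-coding gene lay 35 FM-strong regions, 3.50% against 2.90% of qualifying regions.

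Strong regions are often promoters, so the shares were also taken within 5 bins of equal size by mean fold of both lists. In the weakest bin the FM-strong regions were at gene ends in 22% of 118, against 20.1% of the bin. In the next bins the shares were 12.6% of 277 against 19.6%, 23.0% of 379 against 32.5%, and 50.3% of 165 against 58.9%. The gap was widest in the strongest bin, with 44.3% of 61 (31.5 to 57.6%) against 76.6%. KO-strong regions were at gene ends in 66.8% of 304 in that bin, also below it, in 57.2% of 355 in the next bin down, and in 43.8% to 61.9% of the 3 weaker bins, above those bins. The shares of both sets thus varied with strength. So did the ratio itself, with a median over qualifying regions of 0.10 in the weakest bin and −0.12 in the strongest. The trend of place along the ratio, given next, is therefore not separated from strength. Along the whole ratio the gene-end share rose from 25.8% in the highest 1000 to 57.9% in group 21, and it was 56.7% in the last group. The next 4 groups of 1000, at 25.9 to 27.0%, were at gene ends about as often as the FM-strong regions, so place alone did not separate the FM-strong regions from those of somewhat lower ratio. The share also moved with the floor on q. Among regions with a −log10 q of at least 5 in each list the highest 1000 were at gene ends in 15.8%, against 26.1%, and 261 of them were the same regions. With a floor of 20 the share was 42.2%, against 59.9%, and 278 were the same. Those 278 are all the FM-strong regions that meet this floor, so their number is set by the floor.

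**Figure D3:**
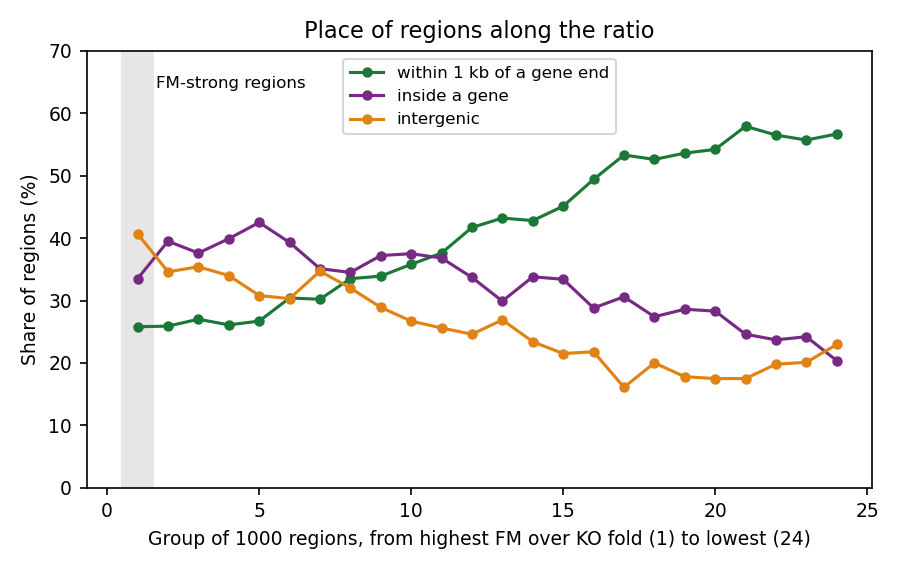
Share of regions (%, y axis) within 1 kb of a gene end, inside a gene or intergenic, in successive groups of 1000 qualifying regions ordered from the highest to the lowest ratio of FM to KO fold (x axis, the last group holding 1080). The gene-end share rises from 25.8% in the FM-strong regions, shaded, to 56.7% in the last group, while the intergenic share falls from 40.7% over most of the range.

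FM-strong regions that did reach promoters overlapped CpG-poorer ones than qualifying regions did in general. They overlapped 231 of the 18836 RefSeq promoter windows used, and their median observed over expected CpG was 0.60, against 0.78 for the 11020 windows overlapped by qualifying regions, 0.86 for the 657 of KO-strong regions and 0.58 for all windows. Windows at 0.75 or above made up 29.4%, against 55.8% for qualifying and 68.3% for KO-strong regions. Those between 0.4 and 0.75 made up 48.1% against 35.4% and 24.7%, and those under 0.4 made up 22.5% against 8.74% and 7.0%. Over all windows the high, intermediate and low classes made up 34.3%, 26.8% and 39.0%. Median GC content was 61.0% in FM-strong, 62.7% in qualifying and 60.7% in KO-strong windows. Within each of the 5 bins of mean fold the median observed over expected CpG was lower in FM-strong than in qualifying windows. It was 0.31 against 0.63 in the weakest bin, where 14 windows counted, and 0.68 against 0.83 in the strongest. Windows of the regions ranked just below the FM-strong ones spread over a similar range of values. Low CpG content was therefore not shown to be particular to the FM-strong regions.

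**Figure D4:**
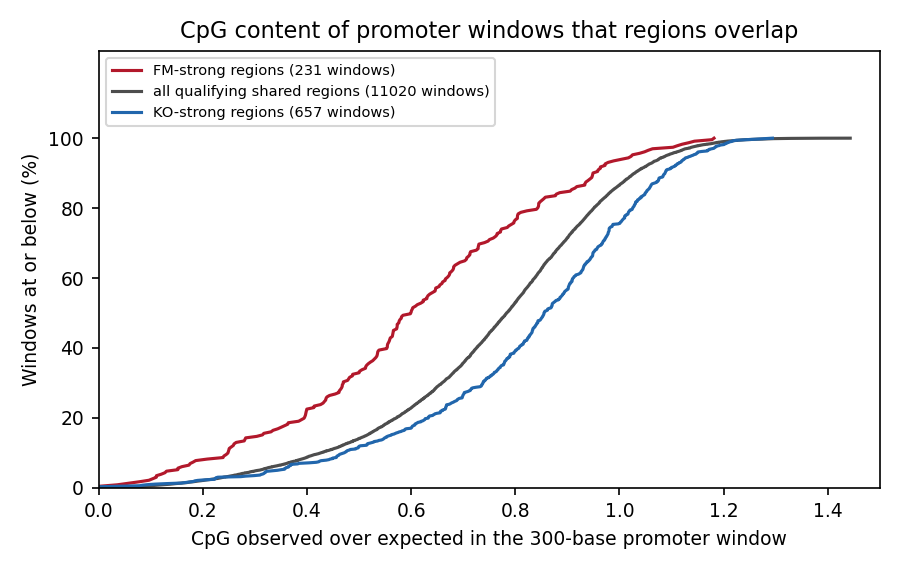
Cumulative share of promoter windows (%, y axis) at or below each observed over expected CpG value (x axis), for windows overlapped by FM-strong regions, by all qualifying shared regions and by KO-strong regions. The curve of the FM-strong regions lies to the left, with a median of 0.60 against 0.78 and 0.86.

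Of 11 short motifs searched on either strand of the promoter windows, most were found about as often in FM-strong windows as in qualifying ones. TATAAA, the TATA box, was in 9.96% of FM-strong windows (6.42 to 14.6%), 5.74% of qualifying windows and 12.9% of all windows. GGGCGG, the GC box bound by Sp factors, was in 66.7%, 69.9% and 46.8%. TAATTA, a homeobox-type core, was in 1.73%, 1.81% and 4.54%, and TGANTCA, the AP-1 motif, in 3.90%, 4.11% and 7.15%. CACGTG, the E-box bound by factors of the MYC and USF type, was in 12.1%, 10.6% and 7.88%. GATAA of GATA factors was in 14.3%, 13.1% and 22.5%, and GTAAACA of forkhead factors in 2.16%, 2.25% and 3.11%. CTTTGTT of Sox and TCF factors was in 2.16%, 3.24% and 4.91%, GGAATG of TEAD factors in 7.79%, 11.0% and 13.4%, and AGGTGTGA of T-box factors in 1.30%, 0.771% and 1.17%. The octamer ATGCAAAT was in 0.433%, 1.23% and 1.70%. GATAA can overlap other motifs. These are matches of letters in 300-base windows and describe promoters, which most FM-strong regions do not touch.

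Mixl1 itself was among the FM-strong regions. The region at its gene end, chr1:180696320-180697696, ranked 132 with folds of 4.26 and 2.97, pileups of 208 and 142 and a centred ratio of 0.67. It was the single FM-strong region among 53 qualifying regions nearest to 24 primitive streak and mesendoderm genes, or 1.89% against the 4.15% that the rule takes from all regions. The median centred ratio of those 53 was 0.10, against 0 by construction for all. The labels do not say which part of Mixl1 was deleted, so this value does not check them.

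The other embryonic lists are read against the same background of 4.15%. Regions of a list are not replicates, so these intervals cover counting only and do not test a list. Of 52 regions nearest to pluripotency and epiblast genes 6 were FM-strong, or 11.5% (4.35 to 23.4%). These 6 are described next. Counting instead all regions within 20 kb of such a gene gave 5 of 58, or 8.62%. Of the 6, 1 lay inside Lin28a, an RNA-binding inhibitor of let-7 processing, at a centred ratio of 0.81 and pileups of 280 and 163. Another lay 46.7 kb from Klf4, a Krüppel-like pluripotency factor, at 0.77 and pileups of 146 and 83. The rest were 2 regions near Otx2, an anterior epiblast factor, at 0.53 and 0.49, and 1 each near the DNA methyltransferase gene Dnmt3b and near Sox2. None of these 6 was at a gene end, and the median over the 52 regions was 0.05. The region at the end of Pou5f1, the gene of the pluripotency factor OCT4, had folds of 2.39 and 3.15 and a centred ratio of −0.25. Of 56 regions nearest to neurectoderm genes 6 were FM-strong, or 10.7% (4.03 to 21.9%), an interval that holds the background. They were led by Lhx2, a LIM homeobox gene of the forebrain, at 0.82 with pileups of 157 and 90. Gbx2, of the midbrain-hindbrain boundary, followed at 0.65, with pileups of 249 and 136, and a region near Sox1, a neural Sox gene, at 0.57 with pileups of 156 and 116. The other regions were near Irx5, Pax3 and Sox1, and the median over the 56 was 0.10.

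Of 72 regions of mesoderm and cardiac genes 3 were FM-strong, or 4.17%, near the background of 4.15%. They were nearest to Etv2 and Tal1, which act in blood and endothelial specification, at 0.65 and 0.58, and to the homeobox gene Meis1 at 0.55. At Etv2 the pileups were 253 and 163. Of 29 regions of definitive endoderm genes 3 were FM-strong, or 10.3% (2.19 to 27.4%), an interval that holds the background. They were the 2 of Otx2 already counted and 1 inside Hnf4a, a hepatocyte nuclear factor, at 0.45. Signalling feedback genes had 1 of 88, near the BMP antagonist gene Chrd at 0.56, and extraembryonic genes had 2 of 36, both near Tfap2a, an AP-2 factor gene, at 0.77 and 0.65. No region of 38 for AP-1 and stress genes was FM-strong, which allows a share of up to 9.25%, and their median was −0.17. None of 17 for housekeeping genes was, which allows up to 19.5%. Genes of feeder fibroblasts, the other cell type the cultures could hold, had 2 of 24, at Col1a2 and near Fn1, both at 0.48, with a median of 0.07 over the 24. The part of feeder cells in the ratios was not tested.

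**Figure D5:**
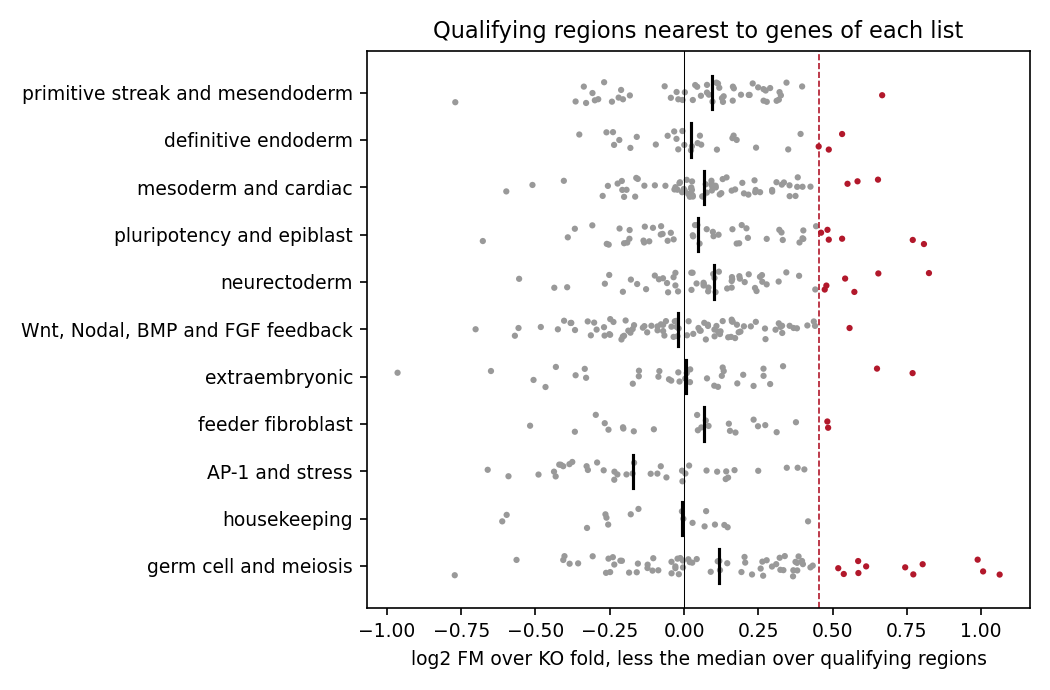
Centred log2 ratio of FM to KO fold (x axis) for qualifying regions nearest to the genes of each list (rows), with FM-strong regions in red, the others in grey, a bar at each list's median and a dashed line at the lowest ratio of an FM-strong region. Germ cell and meiosis genes, a list written after 4 of its genes were seen among the highest regions, hold 11 FM-strong regions of 75. Without those 4 genes they hold 6 of 68. AP-1 and stress genes hold none of 38, and the share over all qualifying regions is 4.15%.

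The list of 75 germ cell and meiosis genes was written after 4 of its genes (Sox30, Topaz1, Hsf2bp and Sycp2) had been seen among the highest regions. Of 75 regions nearest to these genes 11 were FM-strong, or 14.7% (7.56 to 24.7%), and the median centred ratio was 0.12. Without those 4 genes the count was 6 of 68, or 8.82% (3.31 to 18.2%), an interval that holds the background of 4.15%, and the median was 0.04. The share was then below those of the pluripotency, neurectoderm and endoderm lists. At gene ends the median was 0.26 over 30 regions, or 0.25 over 28 without those genes, against −0.08 over the 10001 gene-end regions of all genes. In the 10 lists fixed earlier the gene-end median ran from −0.17 (AP-1 and stress, 15 regions) to 0.13 (extraembryonic, 7 regions). It was 0.12 over 17 regions of primitive streak and mesendoderm genes. These medians were not matched for the strength of the regions, and the difference was not tested. Synaptonemal complex genes were represented by Sycp2 at 0.80, with folds of 5.44 and 3.45 and pileups of 179 and 102, and by Sycp3 at 0.74, with folds of 4.26 and 2.81 and pileups of 143 and 83. The remaining germ line genes were Stk31 at 0.61, Figla, a basic helix-loop-helix factor of oocytes, at 0.59 with pileups of 182 and 101, Tex14 at 0.59 and Piwil1, a PIWI protein of piRNA silencing, at 0.54. Tex14, a gene of germ cell intercellular bridges, had pileups of 138 and 141, and its local backgrounds were 47.4 and 66.0 fragments. A region 6.45 kb from Prdm9, the histone methyltransferase that places meiotic recombination, had a ratio of 0.77 with folds of 4.03 and 2.61, while the region at the end of Prdm9 itself had −0.23. The list was not uniform, since the regions at the ends of Tekt5 and Spo11 had −0.56 and −0.77. No RNA was measured, so these values say nothing of the expression of these genes.

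The 1000 regions were spread over 888 nearest genes, of which 822 had 1, 55 had 2, 8 had 3 and 3 had 4 or more. The genes with the most were Gm3667 with 6 of its 8 qualifying regions, Gm15319 with 5 of 34 and Zfp992, a zinc-finger gene, with 4 of 5. At Gm3667 and Gm15319 the FM pileup was the higher in none of the 11 regions. At Gm3667 the FM pileups were 107 to 182 and the KO pileups 124 to 245. At Zfp992 the FM pileup was the higher in 3 of the 4. Chst3, Dpp6, Nr2f2, Tspan15 and Tjp1, each with 3, had the higher pileup in the FM list in all 3. The other genes with 3 differed. The FM pileup was the higher in 2 of 3 at 9530057J20Rik and in none at Gm52720 and Gm3248. At Gm52720 the FM pileups were 82 to 112 and the KO pileups 120 to 154. The 3 regions of Nr2f2, which encodes the nuclear receptor COUP-TFII, had FM folds of 3.09 to 3.81, KO folds of 2.36 to 2.87, and pileups of 114 to 128 against 76 to 104. Zfp-named genes were nearest to 32 FM-strong regions, 3.20% against 2.18% of qualifying and 1.90% of KO-strong regions. Genes of the Olfr, Vmn, Naip and Def families, which lie in arrays of similar copies, were nearest to 14, or 1.40% against 0.395% and 0.4%.

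The densest stretches of 1 Mb showed 2 kinds of region. On chr8:19698692-20599695, among genes such as 4930467E23Rik and Gm15319, 15 of 92 qualifying regions were FM-strong, but the FM pileup was higher in just 2 of them. The median pileups were 227 and 259 and the median backgrounds 47.2 and 67.3 fragments. On chr14:6891953-7792269, around Gm3667, 9 of 37 were FM-strong, with the FM pileup higher in 2, median pileups of 122 and 129 and backgrounds of 32.1 and 52.7. On chr17:35358025-36205924, which holds H2-Q2, H2-T3 and other genes of the major histocompatibility complex with Ddr1 and Abcf1, 9 of 83 were FM-strong. There the FM pileup was higher in all 9, with medians of 201 and 106. Reads from near-identical copies cannot be placed with certainty, and the handling of multiply mapped reads was not given in the labels used here. Genetic background of the lines, which the labels do not give, was not tested.

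Across chromosomes the FM-strong share of qualifying regions ran from 2.73% on chromosome 11 (61 of 2235) to 5.54% on chromosome 17 (88 of 1589). Chromosome 14 was at 5.37% and chromosome 2 at 3.08%. Clustering was similar in FM-strong and KO-strong regions, since 150 (15%) and 172 (17.2%) had another of their kind within 50 kb. Within 20 kb the counts were 69 and 59, and within 100 kb they were 252 and 261, so the direction changed with the distance. Other qualifying regions within 10 kb of an FM-strong region had a median centred ratio of 0.05 over 591 regions, and 58.4% were above 0. Between 20 and 50 kb the median was −0.04, and beyond 100 kb it was −0.02 over 18736 regions, with 47.5% above 0. FM-strong regions were close to the qualifying regions in shape, with a median width of 936 bp against 1019 bp for qualifying regions, a single peak interval in each list in 88.3% against 88.4%, and a median of 40 bp between the summits of the lists against 38 bp.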

How the data were processed

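Accessible chromatin was measured in 3 libraries per group, each from 50000 cells amplified with 11 PCR cycles, and 2 deposited peak lists, 1 per group, were used. MACS2, Bowtie2, SAMtools and bcl2fastq are named, with the build mm10, per the submitters' processing notes. How libraries were combined, duplicates filtered or Tn5 sites shifted, and with which versions, is not given in the sources used. Each peak carries a fold enrichment (a ratio) and −log10 p-values and q-values, deposited by the authors, with a lowest −log10 q of 1.30. These are the peak caller's values.

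The depth in reads is unknown. The FM list held 175400 peak intervals and the KO list 112384, and the commonest local background was 28.6 and 28.8 fragments. Pileup and background were solved from fold and p-value, and 99.98% and 99.94% of pileups were whole within 0.02. Gene ends, gene bodies and nearest protein-coding genes (within 100 kb) came from RefSeq GRCm38.p6, and 15447 of 18699 genes had a promoter window, matched by gene. Shares carry Clopper-Pearson intervals at 95%. Fragments are not independent molecules, so intervals cover counting error only.

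The FM-strong regions and the gene lists (10 lists of 197 genes, and the germ cell list added later) were chosen with earlier results of these data known. Named were the 10 regions of highest ratio, the 5 of highest FM fold, up to 3 per list, the genes with most regions and the 3 densest stretches. Genes with 3 regions, most germ cell genes, and Pou5f1, Prdm9, Tekt5 and Spo11 were added after their values were seen. The alternatives were other floors, measures, centrings, mergings, numbers of regions and distances. The scripts (Python 3.11.15, numpy 2.4.6, pandas 2.3.3, scipy 1.17.1, matplotlib 3.10.9) were tested on simulated data.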

Additional observations from a re-analysis of the deposited data

Results flagged for a closer look

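The choice of regions left out chromosomes 12, 15 and 18, and each held regions whose centred ratio was at least that of the lowest FM-strong region. On chromosome 12 they numbered 153 of 1913 qualifying regions, or 8.0% (6.82 to 9.31%), and the median ratio there was 0.09. On chromosome 15 they numbered 72 of 1358, or 5.30% (4.17 to 6.63%), and on chromosome 18 they numbered 54 of 896, or 6.03% (4.56 to 7.79%). The share on the chromosomes used was 4.15%.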

How the results depend on the processing

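Of 131 values under other settings, 72 stayed near the reported value (shares and medians inside their 95% interval over regions, counts within 1.5 times) and 59 moved further. Some of the 72 could not move, such as the number of regions kept among the highest 500 and the highest 2000 of the same ranking. With a −log10 q floor of 5, 261 of the 1000 regions were kept, and with pileup in place of fold, 442. With a floor of 20, 278 were kept, which are all those that meet this floor. The gene-end share, 25.8% as reported, was 15.8% with a floor of 5, 42.2% with a floor of 20, 22.8% by −log10 p, 35.5% with centring in 20 bins of mean fold and 22.2% on all autosomes. It was 19.8% with 0.5 kb from a gene end, 32.4% with 2 kb and 21.6% from transcription starts, which was chosen after seeing the data. In each of these settings it was below the share of the qualifying regions, which ranged from 26.1% to 59.9%. Germ cell regions among the FM-strong, 11 as reported, numbered 8 to 15 in the settings that take at most 1000 regions and 21 among the highest 2000. Without the 4 genes seen first they numbered 6. No paired analysis was possible because each group had 1 peak list. No library could be left out for the same reason.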
